A study of Homo sapiens with 18 samples.

Results

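The genes described here are 43 genes of DNA replication and deoxynucleotide synthesis, measured in H1 human embryonic stem cells, an established pluripotent line, and in embryoid bodies grown from them. They were chosen by name, from known roles, with earlier results of these data known. Each was read through a probe set of the Affymetrix Human Gene 1.0 ST array that the platform annotation assigns to that symbol only. Where a gene had several such probe sets, the one with the highest mean over the arrays was used. All 43 had such a probe set, of 18417 genes that did, and all 43 were among the 14209 genes tested. Of the 43, CLSPN alone had more than 1 such probe set.

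The series holds 18 arrays, 3 for each of 6 groups, in 2 states and 3 treatments. Pluripotent cells grew without feeder cells on Matrigel in mTeSR1 medium. Embryoid bodies were cell aggregates formed in AggreWell plates and differentiated for 6 days in APEL medium. In each state the cells were untransduced, transduced with a lentivirus carrying a control shRNA, or transduced with a lentivirus carrying an shRNA against KBTBD8. KBTBD8 belongs to the BTB-Kelch proteins that bring substrates to CUL3 ubiquitin ligases and is known for its part in neural crest specification. Each group is called below by its state and its shRNA. The series' design text gives 3 independent samples per group, and no label says which cultures or transductions were separate, so p-values measure the spread between these samples. All groups come from 1 cell line, and neither the number of shRNA sequences nor a selection step is given in the sources used here.

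The KBTBD8 shRNA array numbered 2 in each state was read apart from the groups, because both looked exchanged in earlier work on these data. The pluripotent array numbered 2 had a mean of 8.14 over 10 neural plate markers, where the pluripotent groups lay between 5.37 and 5.62 and the embryoid body groups between 7.6 and 8.87. The embryoid body array numbered 2 had a mean of 5.36. Over 12 pluripotency markers the pluripotent array numbered 2 read 8.89 and the embryoid body array numbered 2 read 10.19, with pluripotent groups at 10.01 to 10.46 and embryoid bodies at 7.59 to 9.09. Among the 43 replication genes, the pluripotent array was nearer the embryoid body KBTBD8 shRNA mean for 32, and the embryoid body array was nearer the pluripotent mean for 35. The labels were left as they are, neither array was moved to another group, and both are left out of the main values, which rest on 16 arrays. Results on all 18 arrays as labelled are given beside those that depend on them.

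The targeted gene checks the shRNA labels in pluripotent cells only. KBTBD8 read 6.50, 6.43 and 6.03 in untransduced pluripotent cells, 6.39, 7.09 and 7.03 with the control shRNA, and 5.13 and 4.96 with the KBTBD8 shRNA. In pluripotent cells the difference from the control shRNA was -1.79 ± 0.26 (SE) on the log2 scale (limma adjusted p = 0.00028, n = 2 and 3; exact two-sided permutation p = 0.1, the smallest this design allows). In embryoid bodies it was low in every treatment, at 4.07 to 5.06 without the KBTBD8 shRNA and at 4.86 and 4.66 with it, a difference of 0.01 (exact two-sided permutation p = 1). The array's number of replicates limits the precision of all values here. The median over all probe sets was 5.852 to 5.952 on untransduced arrays and 5.973 to 6.121 on transduced ones, so this shift and transduction cannot be told apart. Over the genes tested the medians overlapped, at 6.996 to 7.102 and 7.031 to 7.172.

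DNA replication starts when the origin recognition complex, CDC6 and CDT1 load the MCM2 to MCM7 helicase onto DNA in G1, a step called licensing. Kinases then join CDC45 and the GINS complex to the helicase, cyclin E drives entry into S phase, primase and the polymerases copy the strands on the PCNA clamp, and FEN1 and LIG1 join the pieces of the lagging strand. Ribonucleotide reductase, thymidylate synthase and thymidine kinase supply the deoxynucleotides. Many of these genes are known targets of E2F transcription factors, and pluripotent stem cells are known for a short G1 phase and a large share of cells in S phase. In bulk samples, fewer cells of a type and less RNA per cell cannot be told apart, and this holds for cells in S phase as well.

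The promoters of the genes whose levels the results turn on are shown first, because these genes moved in different directions. Each is the 200 bases just before the RefSeq start of transcription, 5′ to 3′ on the gene's strand (build GRCh38.p14). Capitals mark matches, on either strand, to the E2F letters TTTCCCGC, TTTGGCGC, TTTCGCGC or TTTCCCGG and to the CCAAT box letters CCAAT. RRM2, PCNA, TYMS and FEN1 are genes that fell with the KBTBD8 shRNA in pluripotent cells. MCM6 and MCM7 encode helicase subunits and were not called in that comparison.
RRM2: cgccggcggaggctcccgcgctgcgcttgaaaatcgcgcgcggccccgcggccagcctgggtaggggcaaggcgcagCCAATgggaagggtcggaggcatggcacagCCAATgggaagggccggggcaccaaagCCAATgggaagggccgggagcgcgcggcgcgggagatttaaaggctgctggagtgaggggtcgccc
PCNA: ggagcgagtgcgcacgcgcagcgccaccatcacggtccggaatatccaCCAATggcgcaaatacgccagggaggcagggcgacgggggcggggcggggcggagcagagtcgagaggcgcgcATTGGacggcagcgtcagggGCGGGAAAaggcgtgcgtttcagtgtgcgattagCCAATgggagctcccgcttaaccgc
TYMS: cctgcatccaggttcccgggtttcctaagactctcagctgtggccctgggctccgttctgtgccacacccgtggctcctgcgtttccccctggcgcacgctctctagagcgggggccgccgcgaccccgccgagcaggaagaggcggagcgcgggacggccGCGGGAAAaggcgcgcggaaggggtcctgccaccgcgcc
FEN1: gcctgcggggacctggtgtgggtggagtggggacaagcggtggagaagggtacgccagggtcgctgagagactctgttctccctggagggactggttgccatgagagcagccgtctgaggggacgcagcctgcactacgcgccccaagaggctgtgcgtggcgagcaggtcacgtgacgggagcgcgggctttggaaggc
MCM6: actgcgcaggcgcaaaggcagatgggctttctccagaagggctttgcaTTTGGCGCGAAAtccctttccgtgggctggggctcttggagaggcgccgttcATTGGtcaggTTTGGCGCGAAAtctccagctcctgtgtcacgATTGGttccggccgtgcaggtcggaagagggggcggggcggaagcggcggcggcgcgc
MCM7: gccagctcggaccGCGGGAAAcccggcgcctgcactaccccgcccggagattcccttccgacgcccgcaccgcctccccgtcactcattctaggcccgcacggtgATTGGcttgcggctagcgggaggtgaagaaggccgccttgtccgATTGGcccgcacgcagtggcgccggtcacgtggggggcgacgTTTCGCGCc
These stretches lie at chr2:10122539-10122738 (plus strand), chr20:5126623-5126822 (minus strand), chr18:657453-657652 (plus strand), chr11:61792711-61792910 (plus strand), chr2:135876444-135876643 (minus strand) and chr7:100101398-100101597 (minus strand). PCNA and TYMS each held 1 E2F match, starting 59 and 39 bases before the start. MCM6 held 4 that overlap in pairs, the first letters lying 152, 148, 90 and 86 bases before the start, and MCM7 held 2, at 187 and 9 bases. RRM2 held 3 CCAAT matches and no E2F letters, and FEN1 held neither. RRM2 has 2 start windows in the RefSeq table, PCNA 2 and MCM7 3, and the window with the most matches is shown.

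Of the 43 genes, 37 have a promoter window in the RefSeq table, which runs from 250 bases before to 50 bases after the start. Those not matched are MCM4, MCM5, GINS4, POLD3, CCNE2 and FAM111B. E2F letters lay in a window of 19 of the 37 (51.4%), against 1374 of 27305 genes in the whole table (5.03%). CCAAT letters lay in 23 of the 37 (62.2%), against 39.7% of all genes. The letters TTTGAA, from the cell cycle homology region known from mitotic genes, lay in 3 of the 37 (8.11%), against 18.2% of all genes. The E2F letters were held by MCM2, MCM3, MCM6, MCM7, CDC6, CDT1, GINS1, GINS2, POLA1, POLA2, POLE, POLE2, PCNA, RFC3, LIG1, TYMS, FAM111A, CLSPN and TIPIN. They were also present in 3 of the 7 matched genes that fell with the KBTBD8 shRNA in pluripotent cells and in 16 of the 29 matched genes not called there. These are counts of letters in a window, with no test.

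Differentiation of untransduced cells moved the replication genes in both directions, and by modest amounts. Of the 43, 8 were higher and 10 lower in embryoid bodies than in pluripotent cells at an adjusted p under 0.05, which is the call rule throughout. Most genes given by array below were picked because they were called and their groups do not overlap. That their arrays lie apart is therefore no added support. Over all 14209 genes tested, 25.8% were called higher and 26.3% lower, so the members' shares are close to the background. Their median difference was 0.02 on the log2 scale, against -0.041 over all genes tested, and -0.01 with arrays centred on their median. MCM7, PRIM2 and GINS1 were among the larger changes, and the licensing genes divided into MCM2 and MCM7, which rose, and CDC6, MCM3 and MCM4, which fell.

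MCM7, a subunit of the helicase, read 9.15, 8.99 and 9.04 in pluripotent cells and 9.58, 9.64 and 9.66 in embryoid bodies. MCM2, its partner in the ring, read 7.93, 7.80 and 8.01 and then 8.45, 8.35 and 8.38. The rise was 0.57 ± 0.09 for MCM7 (limma adjusted p = 5.6e-05) and 0.48 ± 0.08 for MCM2 (limma adjusted p = 0.00013). CDC6, which helps to load the ring, went from 9.62, 9.49 and 9.53 to 8.96, 9.07 and 9.17 and fell by 0.48 ± 0.09. MCM3 fell by 0.27 and MCM4 by 0.29, and MCM5, MCM6, ORC1 and CDT1 were not called.

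GINS1, part of the active helicase, read 9.70, 9.58 and 9.34 in pluripotent cells and 8.99, 8.97 and 8.98 in embryoid bodies. Its 3 embryoid body arrays were close together and below all 3 pluripotent arrays, a fall of 0.56 ± 0.09 (adjusted p = 7.2e-05). GINS4, of the same complex, read 7.73, 8.38 and 7.75 and then 7.26, 7.69 and 7.65, a fall of 0.42 ± 0.15. That call was lost without pluripotent array 2, the one at 8.38, where the difference was -0.20, and without embryoid body array 1, where it was -0.28. CDC45 fell by 0.31, whereas GINS2 rose by 0.26 ± 0.09, a call lost when any of 4 arrays was left out. PRIM2, the large primase subunit, read 8.53, 8.36 and 8.30 and then 7.70, 7.81 and 8.0, a fall of 0.56 ± 0.09. POLD3, an accessory subunit of DNA polymerase delta, read 8.70, 8.78 and 8.72 and then 9.13, 9.34 and 9.45, and rose by 0.57 ± 0.09 (adjusted p = 5.9e-05).

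Of the nucleotide enzymes, TYMS, which makes thymidylate, went from 10.48, 10.44 and 10.52 to 10.79, 10.74 and 10.88. RRM1, the large subunit of ribonucleotide reductase, went from 9.39, 9.20 and 9.17 to 9.59, 9.47 and 9.69. Both were higher in all 3 embryoid body arrays, by 0.32 ± 0.07 and 0.33 ± 0.08. RRM2, the small subunit, differed by 0.02 and TK1, the salvage kinase for thymidine, by -0.22, and neither was called. The cyclins of S phase entry went apart. CCNE1 read 8.13, 8.04 and 8.19 and then 7.73, 7.61 and 7.94, a fall of 0.36 ± 0.10. CCNE2 read 6.02, 5.55 and 5.54 and then 6.13, 6.52 and 6.56, a rise of 0.70 ± 0.14 (adjusted p = 0.00041).

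Among the remaining members, RFC5 of the clamp loader rose by 0.23, a call lost when any of 6 arrays was left out. CHAF1A of the chromatin assembly factor fell by 0.22, and FAM111A, a protease that helps forks past obstacles, went from 7.86, 7.74 and 7.80 to 7.23, 7.57 and 7.39, a fall of 0.40 ± 0.10. PCNA, FEN1, LIG1, UNG, CLSPN and TIPIN were not called. With all 18 arrays as labelled 7 members were called higher and 3 lower, and 13 of the 18 calls held in every fit that left out 1 array.

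Differentiation with the control shRNA lowered most of the genes. Of the 43, 29 fell and 1, TYMS, rose, against 25.2% of all genes lower and 23.1% higher. The median difference was -0.37, against -0.023 over all genes tested. All 9 licensing genes fell, as did both histone deposition genes, both FAM111 genes and both lagging strand genes. Leaving out each array in turn gave 27 to 31 calls, with 27 of the 30 called in every such fit and CDT1, POLE2 and LIG1 lost in some, and on all 18 arrays 22 members were lower and 1 higher.

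CCNE1 read 8.45, 8.62 and 8.70 in pluripotent cells and 7.31, 7.55 and 7.54 in embryoid bodies, a 2.18-fold fall (1.13 ± 0.10 on the log2 scale, adjusted p = 1.2e-07). MCM5 read 9.84, 9.85 and 10.04 and then 8.90, 9.06 and 8.92, a 1.93-fold fall. CHAF1A, the large subunit of the factor that places histones on new DNA, read 9.64, 9.56 and 9.65 and then 8.71, 8.80 and 8.79, a 1.8-fold fall. Genes given by array here were chosen for not overlapping between the states. FAM111B, a relative of FAM111A, showed the largest fall, from 8.22, 8.41 and 8.29 to 6.67, 6.48 and 6.84, or 3.13-fold (adjusted p = 1.4e-05). FAM111A went from 7.52, 7.85 and 7.73 to 6.78, 6.60 and 6.82, a 1.96-fold fall. CDC6 went from 9.39, 9.67 and 9.66 to 8.82, 8.65 and 8.86, a 1.74-fold fall.

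The other licensing genes fell by 0.79 (MCM3), 0.67 (MCM6), 0.57 (MCM4 and ORC1), 0.35 (MCM2), 0.34 (MCM7) and 0.31 (CDT1) on the log2 scale. Of the helicase activation genes GINS1 fell by 0.74, MCM10 by 0.45 and CDC45 by 0.37, while GINS2 and GINS4 were not called. Of the 8 polymerase and primase genes, POLD1, POLE2 and PRIM2 fell. PCNA fell by 0.54, RFC1 by 0.45 and RFC2 by 0.39, and RFC3, RFC4 and RFC5 were not called. RRM2 read 8.53, 8.79 and 8.77 and then 8.16, 8.04 and 8.20, a fall of 0.57 ± 0.09, and TK1 fell by 0.52. TYMS alone went the other way, from 10.17, 10.12 and 10.19 to 10.59, 10.55 and 10.58, a rise of 0.41 ± 0.07 (adjusted p = 9.8e-05). UNG, which removes uracil from DNA, fell by 0.43, TIPIN of the fork protection complex by 0.52, FEN1 by 0.34 and LIG1 by 0.24.

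Differentiation with the KBTBD8 shRNA rested on 2 arrays of each state. Of the 43, 16 fell and 4 rose, against 21.1% of all genes lower and 17.3% higher, with a median difference of -0.23 against 0.002. CCNE1 read 8.47 and 8.45 in pluripotent cells and 7.45 and 7.56 in embryoid bodies, a fall of 0.96 ± 0.12 (adjusted p = 1.1e-05). TIPIN read 9.54 and 9.66 and then 8.61 and 8.68, a fall of 0.95 ± 0.12. MCM5 read 9.84 and 9.83 and then 8.83 and 9.22. CDC6 went from 9.58 and 9.57 to 8.88 and 8.93 and CHAF1A from 9.63 and 9.61 to 8.91 and 8.98, each lower by 0.67. GINS4 went from 7.90 and 8.16 to 7.45 and 7.53 and fell by 0.54 ± 0.18. RFC1 fell by 0.51, MCM6 by 0.50 and PRIM1 by 0.49. Further falls of 0.31 to 0.48 were called for TK1, CDC45, FAM111A, RFC2, RFC3, MCM3 and PRIM2. RRM1 and RRM2 of ribonucleotide reductase rose, RRM1 from 8.84 and 8.86 to 9.30 and 9.38 and RRM2 from 7.31 and 7.45 to 7.80 and 7.57. The rises were 0.49 ± 0.10 for RRM1, 0.35 for POLE, 0.31 for RRM2 and 0.29 for TYMS. On all 18 arrays as labelled none of the 43 was called by limma, 3 having an unadjusted p under 0.05 (all higher). Of all 14209 genes tested 0 were called in that fit, and 763 had an unadjusted p under 0.05. MCM5 differed there by -0.24 and CCNE1 by -0.36. Without the embryoid body array numbered 1 the count was 12, and 11 of the 20 were called in every fit that left out 1 array. Cell type markers moved with differentiation in all treatments. Of 12 pluripotency markers, 10 fell in each treatment, and SALL4 rose with each shRNA. Neural plate markers rose for 10 of 10 in untransduced cells and with the KBTBD8 shRNA and for 8 of 10 with the control shRNA. Neural crest markers rose for 5 of 8 and fell for 2, ETS1 and FOXD3, in untransduced cells, where the array means were 5.83 to 5.89 before and 5.89 to 6.02 after. With the control shRNA 8 of 8 rose, and with the KBTBD8 shRNA 6 rose and ETS1 fell. Endoderm and yolk sac markers rose for 5 of 7 with the control shRNA and 1 of 7 with the KBTBD8 shRNA, and fell for 2 of 7 in untransduced cells. Neuron markers rose for 3 of 7 and fell for 1 in untransduced cells, and rose for 6 with the control and 3 with the KBTBD8 shRNA. Mesenchyme markers rose for 1, 5 and 2 of 7 in that order, and fell for 2, 1 and 2. Trophoblast and amnion markers fell for 3 of 5 in untransduced cells and rose for 2 and 3 with the shRNAs. Endothelium and blood markers fell for 4, 3 and 2 of 4. The part of these lists in the replication genes' changes was not tested.

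**Figure D1:**
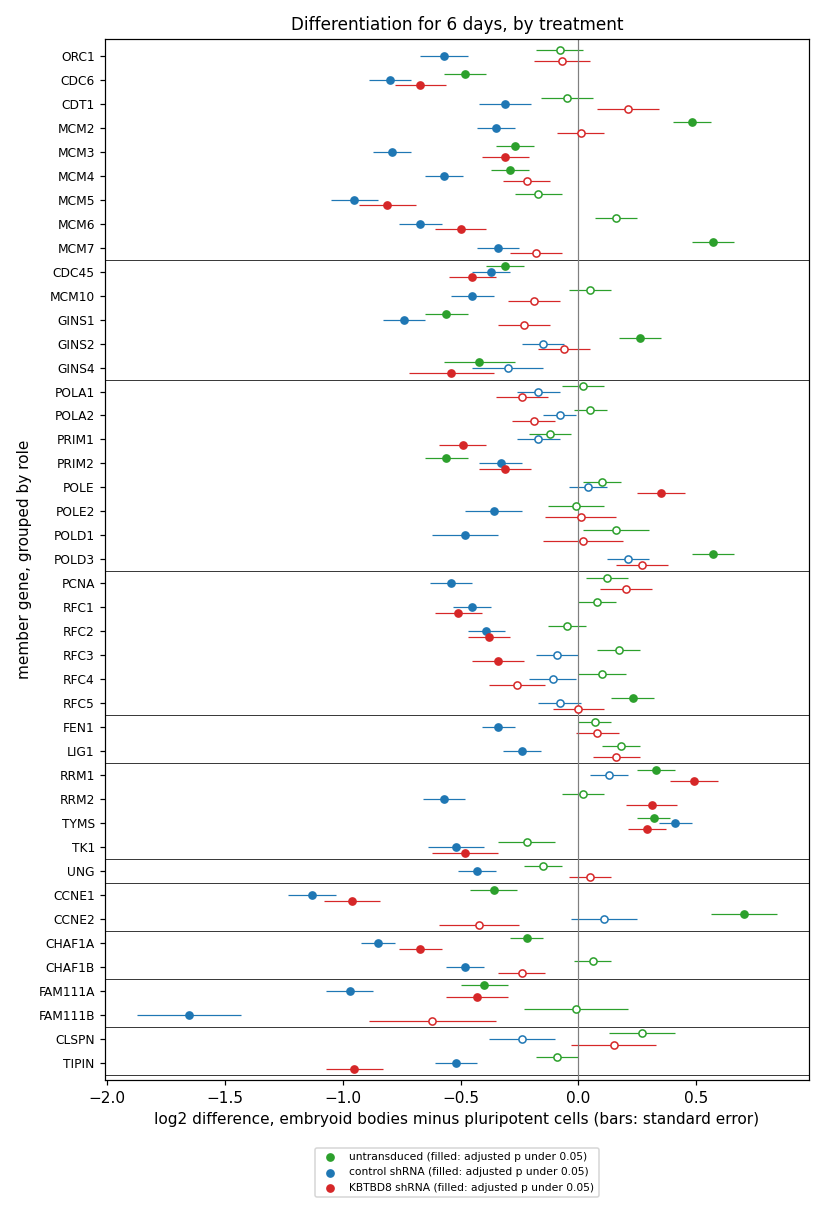
Log2 difference between embryoid bodies and pluripotent cells for each of the 43 genes in untransduced cells, with the control shRNA and with the KBTBD8 shRNA; points are limma estimates, bars are standard errors, filled points have an adjusted p under 0.05, and lines divide the roles. The licensing genes at the top all lie left of 0 with the control shRNA, while MCM2 and MCM7 lie right of 0 in untransduced cells.

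Whether the change with differentiation itself differed between treatments was tested directly. Between the control shRNA and untransduced cells it differed for 22 of the 43. The change was always lower with the control shRNA, against 8.61% of all genes in that direction and 8.26% in the other. In the other direction no member had an unadjusted limma p under 0.05. A lower change is not always a lower level in embryoid bodies. MCM7, RRM2, MCM10 and LIG1 were not called between these treatments there (0.13, -0.02, 0.05 and 0.05). In pluripotent cells they were higher with the control shRNA (1.04, 0.57, 0.55 and 0.46). PCNA, in contrast, was lower in both states. The median of this difference was -0.41, against 0 over all genes. It was largest for FAM111B (-1.63 ± 0.31), MCM7 (-0.91 ± 0.13), MCM2 and MCM6 (-0.83 each), MCM5 (-0.78) and CCNE1 (-0.77). Leaving out each array in turn left 15 of the 22 called in every fit. With all 18 arrays as labelled, 5 were called, and over all genes tested the calls fell from 2398 to 744.

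Between the KBTBD8 and the control shRNA it differed for 7 of the 43. The change was always higher with the KBTBD8 shRNA, against 3.74% of all genes higher and 6.12% lower. The level of RRM2 was lower with the KBTBD8 shRNA in both states, by more in pluripotent cells (-1.32) than in embryoid bodies (-0.44). In the lower direction limma called none, and 3 had an unadjusted p under 0.05. RRM2 (0.88 ± 0.14, adjusted p = 0.0011) and PCNA (0.73 ± 0.14, adjusted p = 0.0031) stayed called whichever array was left out. FAM111A, GINS1, MCM3, UNG and FEN1 did not. The count was 2 without the pluripotent KBTBD8 shRNA array 1, 3 without array 3 of either KBTBD8 shRNA group or control shRNA array 2 of the pluripotent cells, and 4 without control shRNA array 3 of the pluripotent cells or array 1 of the embryoid bodies. All 18 arrays as labelled gave 8 higher. Both tests use the control shRNA arrays, so their results are not independent.

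In pluripotent cells the control shRNA group had higher levels of many replication genes than untransduced cells. Of the 43, 19 were higher and 2 lower, against 17% of all genes higher and 12.1% lower. The median difference was 0.21, against 0.043 over all genes tested. The higher genes included MCM2, MCM3, MCM5 and MCM7 of the helicase, RRM2 and TK1 of nucleotide supply, CCNE1, and both histone deposition genes, while PCNA and TYMS were lower. With arrays centred on their median, 17 members were higher and 3 lower, and over all genes the share of calls that were higher moved from 58.4% to 43.4%.

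MCM7 read 9.15, 8.99 and 9.04 in untransduced cells and 9.90, 10.13 and 10.26 with the control shRNA, a 2.05-fold rise (1.04 ± 0.09 on the log2 scale, adjusted p = 3.5e-06). MCM5 read 9.12, 9.25 and 9.21 and then 9.84, 9.85 and 10.04, a 1.64-fold rise. MCM2 rose 1.53-fold, to 8.42, 8.52 and 8.64. The untransduced arrays of these genes all lay below the control shRNA arrays. RRM2 read 8.18, 8.14 and 8.06 and then 8.53, 8.79 and 8.77, a 1.48-fold rise (adjusted p = 0.00041). MCM10, which acts in helicase activation, went from 8.31, 8.17 and 8.17 to 8.60, 8.82 and 8.86. TK1 went from 8.44, 8.19 and 8.28 to 8.62, 8.82 and 9.04.

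Smaller rises were called for POLD1 (0.51), RFC1 (0.48), CCNE1 and CHAF1A (0.47 each), LIG1 (0.46), CLSPN (0.46, but 0.28 and not called when its 2 probe sets were averaged), MCM3 (0.40), POLA1 and CHAF1B (0.35 each), POLE and UNG (0.28 each) and RFC2 (0.24). FAM111B was called at 0.64 ± 0.22, yet its untransduced arrays read 8.46, 7.26 and 7.29 and overlapped the control shRNA arrays. PCNA, the sliding clamp, read 9.85, 9.77 and 9.95 in untransduced cells and 9.59, 9.40 and 9.52 with the control shRNA, a fall of 0.35 ± 0.09. TYMS read 10.48, 10.44 and 10.52 and then 10.17, 10.12 and 10.19, a fall of 0.32 ± 0.07. On all 18 arrays as labelled 7 members were higher and 2 lower, and 16 of the 21 calls held in every fit that left out 1 array. The endoderm and yolk sac markers moved with this comparison, with 7 of 7 higher and array means of 5.08 to 5.18 in untransduced cells and 6.00 to 6.23 with the control shRNA. Of the pluripotency markers 5 of 12 were higher, with array means of 10.01 to 10.28 and 10.36 to 10.46, and the part of either list in the result was not tested.

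In embryoid bodies the control shRNA went the other way. Of the 43, 16 were lower and 0 higher than in untransduced embryoid bodies, against 20.2% of all genes lower and 24.6% higher, with a median difference of -0.12 against 0.036. PCNA read 9.92, 9.93 and 10.07 in untransduced embryoid bodies and 9.07, 8.81 and 9.02 with the control shRNA, a 2.01-fold fall (adjusted p = 2.5e-07). FAM111B read 7.55, 7.60 and 7.83 and then 6.67, 6.48 and 6.84, a 2-fold fall (adjusted p = 0.002). Both genes fell well outside the spread of the untransduced arrays. MCM6 read 9.67, 9.66 and 10.01 and then 9.11, 9.08 and 9.14, a 1.59-fold fall. FAM111A read 7.23, 7.57 and 7.39 and then 6.78, 6.60 and 6.82, a 1.58-fold fall. GINS2 went from 9.69, 9.79 and 9.91 to 9.45, 9.28 and 9.40, and POLE2, a subunit of polymerase epsilon, from 6.53, 6.62 and 6.75 to 6.21, 6.15 and 6.36.

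The remaining falls lay between 0.22 and 0.36 on the log2 scale, in POLD3, ORC1, CCNE1, CDC6, RFC3, TIPIN, RRM1, FEN1, TYMS and MCM2. No member was called higher by limma, 1 having an unadjusted p under 0.05 in that direction, and after quantile normalization 4 were higher and 12 lower. Without untransduced embryoid body array 3 the count fell to 8, with 7 of the 16 called in every fit that left out 1 array, and on all 18 arrays it was 9. The markers of several cell types moved with this comparison. Neural crest markers were higher for 7 of 8, with array means of 5.89 to 6.02 without and 9.03 to 9.14 with the control shRNA. Endoderm and yolk sac markers were higher for 6 of 7 (4.92 to 5.02 and 6.80 to 6.88), mesenchyme markers for 7 of 7 (6.02 to 6.04 and 6.95 to 7), and neural plate markers were lower for 8 of 10 (8.79 to 8.87 and 7.60 to 7.64). Pluripotency markers were higher for 9 of 12 and lower for 1 (7.59 to 7.71 and 8.66), trophoblast and amnion markers higher for 4 of 5 (5.26 to 5.32 and 6.60 to 6.73), and neuron markers higher for 4 of 7 (6.86 to 6.93 and 7.58 to 7.62). Their part in the result was not tested.

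With the KBTBD8 shRNA in pluripotent cells, PCNA and 3 of the 4 deoxynucleotide genes, RRM2, RRM1 and TYMS, were lower than with the control shRNA. The calls of RRM1 and of TYMS were each lost when any of 4 arrays was left out. Of the 43, 8 fell and 1 rose, against 5.58% of all genes lower and 8.43% higher. The median difference was -0.10, against -0.013 over all genes tested. TK1 was not called, and of the 9 licensing genes none was called by limma, 4 having an unadjusted p under 0.05, all lower. With quantile normalization or with arrays centred on their median the count was 14, of which 13 were lower.

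RRM2 read 8.53, 8.79 and 8.77 with the control shRNA and 7.31 and 7.45 with the KBTBD8 shRNA, a 2.5-fold fall (1.32 ± 0.10 on the log2 scale, adjusted p = 1.1e-06). It also lay below the 8.06 to 8.18 of untransduced cells. PCNA read 9.59, 9.40 and 9.52 and then 8.75 and 8.76, a 1.68-fold fall (adjusted p = 0.00014). In both genes the KBTBD8 shRNA arrays lay below all control shRNA and untransduced arrays of pluripotent cells. FAM111B read 8.22, 8.41 and 8.29 and then 7.21 and 7.36, a 2.03-fold fall (adjusted p = 0.012) that was lost when either KBTBD8 shRNA array was left out. Its level then was close to the 7.26 and 7.29 of 2 of the 3 untransduced arrays.

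GINS1 read 9.60, 9.68 and 9.71 and then 9.11 and 9.30, a fall of 0.46 ± 0.10. FEN1, the nuclease that trims lagging strand pieces, read 9.39, 9.43 and 9.41 and then 9.02 and 8.99, a fall of 0.40 ± 0.08 that held whichever array was left out. RRM1 read 9.15, 9.22 and 9.22 and then 8.84 and 8.86, a fall of 0.34 ± 0.09. UNG fell by 0.29 and TYMS by 0.27, to 9.86 and 9.92 from 10.17, 10.12 and 10.19. PRIM1, the small primase subunit, rose from 9.58, 9.56 and 9.40 to 9.89 and 9.99, by 0.43 ± 0.10 (adjusted p = 0.0078). RRM2, PCNA and FEN1 were called whichever array was left out, and the count was 4 without KBTBD8 shRNA array 1 and 5 without array 3. On all 18 arrays as labelled 8 were called lower and none higher, with RRM2 at -1.25 and PCNA at -0.73. These were not the same 8, since RRM1 was no longer called (-0.22, limma adjusted p = 0.36) and MCM4 was (-0.32, limma adjusted p = 0.048). At an unadjusted limma p under 0.05 there were 16 members, none of them higher, and 2710 of all genes tested. Endoderm and yolk sac markers were lower for 5 of 7 (array means 6.00 to 6.23 and 5.44 to 5.50), and their part in the result was not tested.

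In embryoid bodies 4 members were called between the KBTBD8 and the control shRNA. They were 2 (4.7%) in each direction, against 2.84% of all genes higher and 2.96% lower, so the members' shares are close to the background. FAM111A read 6.78, 6.60 and 6.82 with the control shRNA and 7.43 and 7.60 with the KBTBD8 shRNA, a 1.72-fold rise (adjusted p = 0.00039) that was kept whichever array was left out. MCM3 rose by 0.35 ± 0.09, from 9.43, 9.23 and 9.45 to 9.74 and 9.71. RRM2 went from 8.16, 8.04 and 8.20 to 7.80 and 7.57 and TYMS from 10.59, 10.55 and 10.58 to 10.19 and 10.18. RRM2 and TYMS were therefore the members called lower in both states, by 0.44 ± 0.10 and 0.39 ± 0.08 here, though both comparisons rest on few arrays. PCNA, at 8.92 and 8.98 against 9.07, 8.81 and 9.02, was not called. The count was 2 without control shRNA array 1 and 1 without KBTBD8 shRNA array 3, and 1 of the 4 was called in every fit that left out 1 array. On all 18 arrays 1 member was higher and 2 lower. KBTBD8 itself differed by 0.01 in this comparison. Neural crest markers were lower for 7 of 8 (9.03 to 9.14 and 7.28 to 7.47) and endoderm and yolk sac markers for 5 of 7 (6.80 to 6.88 and 5.28 to 5.60). Neural plate markers were higher for 6 of 10 and lower for 2 (7.60 to 7.64 and 8.20 to 8.43), neuron markers lower for 3 of 7 (7.58 to 7.62 and 7.05 to 7.11) and pluripotency markers higher for 4 of 12 (8.66 and 8.96 to 9.09). The part of these lists was not tested.

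**Figure D2:**
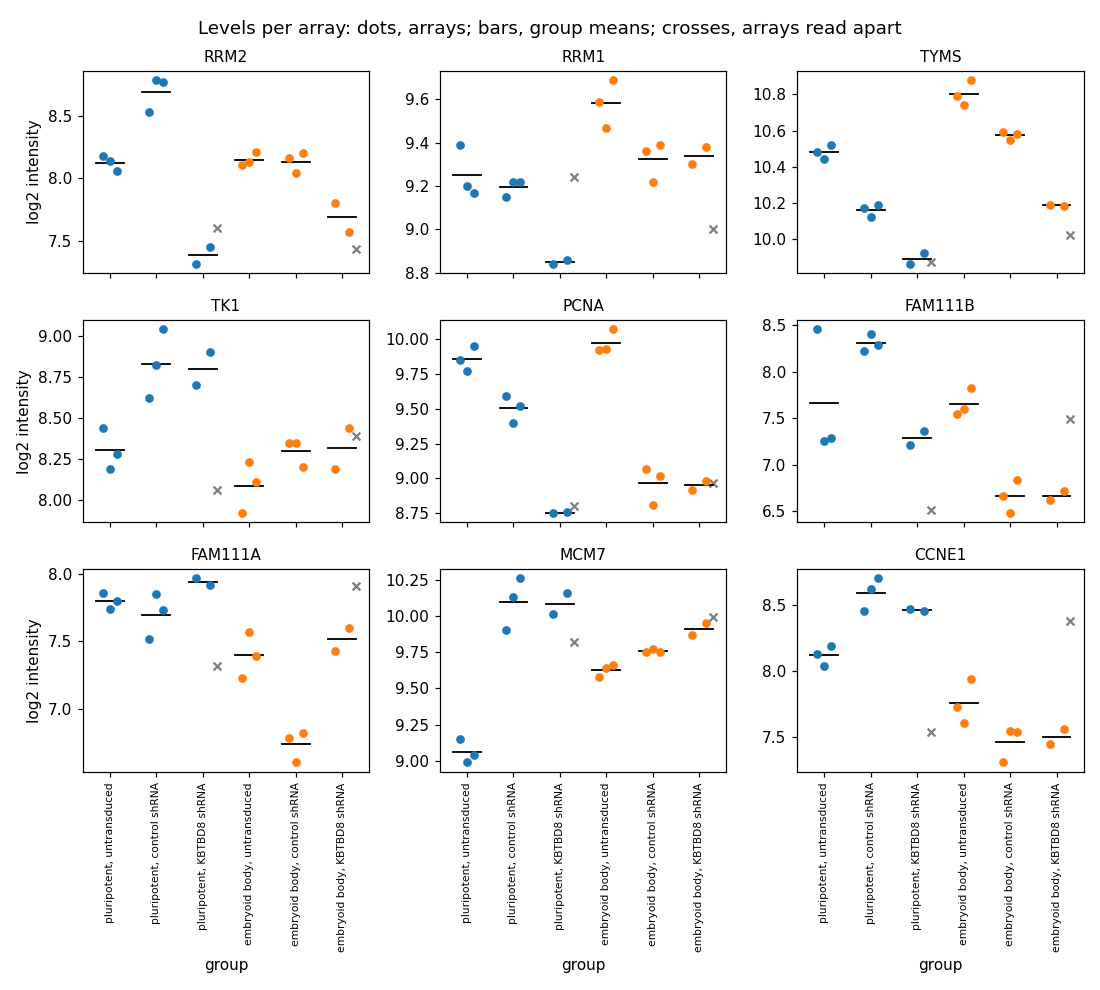
Log2 intensity of RRM2, RRM1, TYMS, TK1, PCNA, FAM111B, FAM111A, MCM7 and CCNE1 on each array, by group; dots are arrays, bars are group means and crosses are the KBTBD8 shRNA arrays numbered 2, which are read apart. RRM2 is lowest with the KBTBD8 shRNA in each state, at 7.31 and 7.45 in pluripotent cells, and PCNA is highest in untransduced cells of both states.

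Set against untransduced cells, the KBTBD8 shRNA gave the following in pluripotent cells. These values share arrays with those above, so each is given for itself. Of the 43, 14 were higher and 6 lower, against 17.2% of all genes higher and 11.1% lower, with a median difference of 0.13 against 0.048. With arrays centred on their median, 9 were higher and 7 lower. MCM7 read 10.01 and 10.16, a 2.04-fold rise, and MCM5 9.84 and 9.83, a 1.56-fold rise, both above the 3 untransduced arrays. RFC1, the large clamp loader subunit, read 9.51 and 9.75 against 9.04, 8.95 and 8.94, a 1.58-fold rise, and again lay above the untransduced arrays. TK1 read 8.70 and 8.90, CHAF1A 9.63 and 9.61 and TIPIN 9.54 and 9.66, rises of 0.50, 0.47 and 0.42. Further rises of 0.26 to 0.39 were called for RFC4, MCM2, RFC2, CCNE1, PRIM1, MCM3 and POLA2. CCNE2 rose by 0.46, with groups that overlapped. PCNA fell 2.15-fold (adjusted p = 3e-06), RRM2 1.68-fold, TYMS 1.51-fold and RRM1 1.32-fold, and the smaller falls were GINS1 at 0.34 and FEN1 at 0.23. Without KBTBD8 shRNA array 3 the count was 9, 8 of the 20 were called in every fit that left out 1 array, and on all 18 arrays 1 was higher and 5 lower. Endoderm and yolk sac markers were higher for 2 of 7 (5.08 to 5.18 and 5.44 to 5.50). Pluripotency markers were higher for 2 of 12 (10.01 to 10.28 and 10.30 to 10.32), which at 16.7% is close to the share of all genes. Neuron markers were higher for 2 of 7 and lower for 2 (6.30 to 6.43 and 6.01 to 6.21). Mesenchyme markers were higher for 2 of 7 and trophoblast and amnion markers for 2 of 5. Neural plate markers were higher for 1 of 10 and lower for 2, with OTX2 at -1.81. The part of these lists was not tested.

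In embryoid bodies 2 members were higher and 11 lower with the KBTBD8 shRNA than in untransduced ones, against 22.5% of all genes higher and 18.6% lower, with a median difference of -0.03 against 0.037. PCNA fell 2.03-fold and TYMS 1.53-fold. FAM111B read 6.62 and 6.72, a 1.99-fold fall, and CCNE2 5.67 and 5.82, a 1.58-fold fall, all below the untransduced arrays. MCM6, at 9.24 and 9.35, fell by 0.48, RRM2 by 0.46, TIPIN by 0.44, GINS2 by 0.40, RFC3 by 0.37, POLD3 by 0.28 and FEN1 by 0.22. POLE, the catalytic subunit of polymerase epsilon, read 8.06 and 8.23 and rose by 0.34, and MCM7 rose by 0.28 to 9.87 and 9.95. After quantile normalization 7 were higher and 10 lower, with a median of 0.01, and on all 18 arrays 1 was higher and 6 lower. Leaving out each array in turn, 7 of the 13 were called in every fit. Pluripotency markers were higher for 12 of 12 (array means 7.59 to 7.71 and 8.96 to 9.09), neural crest markers for 7 of 8 (5.89 to 6.02 and 7.28 to 7.47), trophoblast and amnion markers for 5 of 5 (5.26 to 5.32 and 6.87 to 6.96) and mesenchyme markers for 6 of 7 (6.02 to 6.04 and 6.46 to 6.58). Neural plate markers were lower for 6 of 10 and higher for 2 (8.79 to 8.87 and 8.20 to 8.43). The part of these lists was not tested. PCNA and TYMS were thus lower than in untransduced cells with either shRNA and in either state, and those 4 comparisons share their untransduced arrays within a state.

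**Figure D3:**
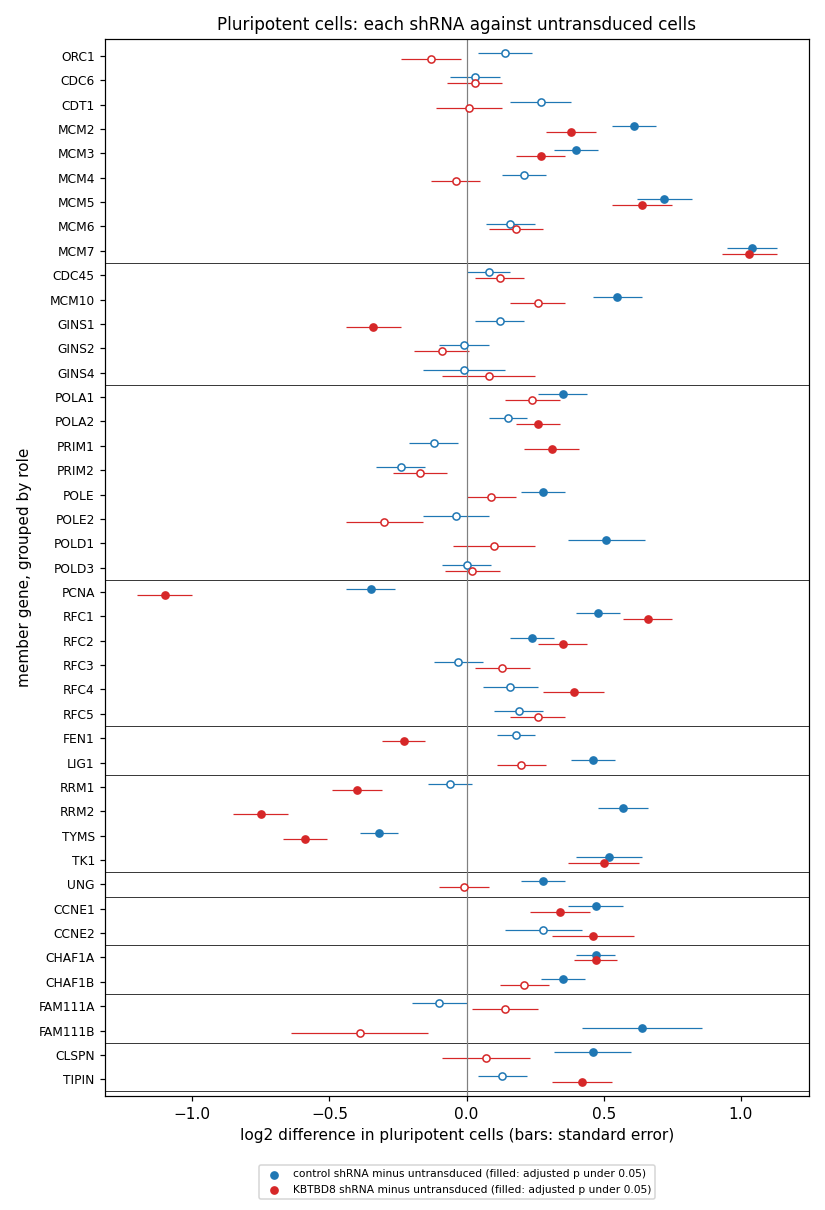
Log2 difference from untransduced pluripotent cells for each of the 43 genes with the control shRNA and with the KBTBD8 shRNA; points are limma estimates, bars are standard errors and filled points have an adjusted p under 0.05. RRM2 lies at 0.57 with the control shRNA and at -0.75 with the KBTBD8 shRNA, while MCM7 lies at 1.04 and 1.03; both series share the untransduced arrays.

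Across the 16 arrays, the members' mean deviation from their own means ran from 0.15 to 0.27 on the control shRNA arrays of pluripotent cells and from -0.21 to -0.16 on those of embryoid bodies. On untransduced arrays it lay between -0.05 and 0.05 in pluripotent cells and between -0.07 and 0.07 in embryoid bodies. The control shRNA arrays of pluripotent cells were the highest of the 16. The KBTBD8 shRNA arrays read 0.04 and 0.13 in pluripotent cells, below the control shRNA arrays there. In embryoid bodies they read -0.18, within the range of the control shRNA arrays, and -0.07, above it. The arrays read apart gave -0.30 (labelled pluripotent) and 0.14 (labelled embryoid body).

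**Figure D4:**
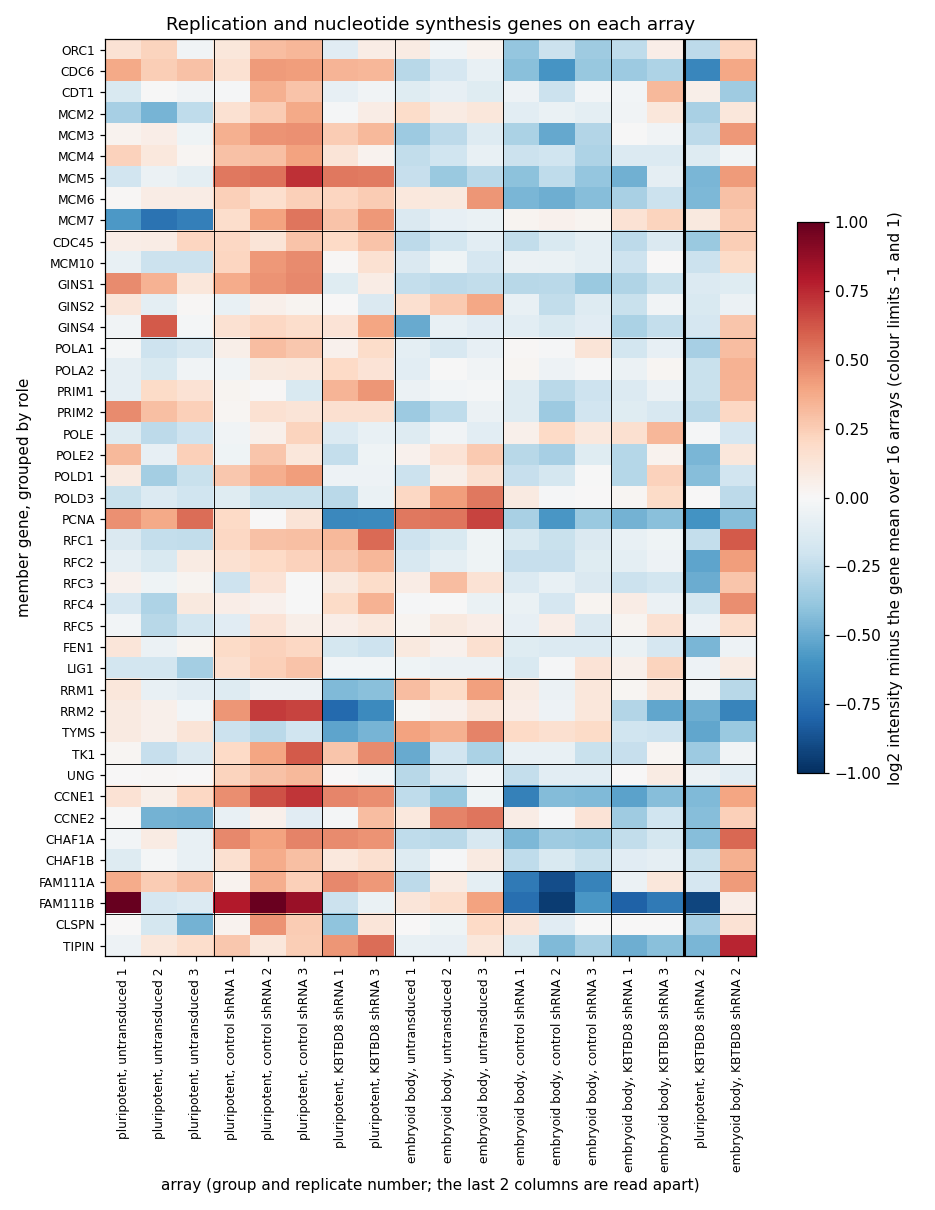
Each row is a member gene, grouped by role, and each column an array; the colour is the log2 intensity minus the gene's mean over the 16 arrays used, limited to -1 and 1. The control shRNA arrays of pluripotent cells have a mean deviation of 0.15 to 0.27 and those of embryoid bodies of -0.21 to -0.16; the last 2 columns are the arrays read apart, at -0.30 and 0.14.

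Further genes of the same processes were counted in lists by function, none of them members. Their shares are to be read against those of all genes tested in the same comparison, which for differentiation were 25.8% higher and 26.3% lower in untransduced cells, 23.1% and 25.2% with the control shRNA, and 17.3% and 21.1% with the KBTBD8 shRNA. Of 46 other replication genes, 11 (23.9%) were higher and 5 (10.9%) lower with differentiation in untransduced cells, 2 (4.3%) and 17 (37%) with the control shRNA, and 6 (13%) and 9 (19.6%) with the KBTBD8 shRNA. DSCC1, a part of an alternative clamp loader, fell in each (by 0.72, 0.87 and 0.78), as did RNASEH2B, a subunit of the nuclease that removes ribonucleotides from DNA (by 0.55, 0.65 and 0.65). With the control shRNA in embryoid bodies 21 of the 46 (45.7%, against 20.2% of all genes) were lower and 2 higher, among them PCLAF, a PCNA-binding factor (-0.60), GMNN, the inhibitor of CDT1 (-0.56), and CDC7, the kinase that activates the helicase (-0.55). In pluripotent cells 5 of the 46 (10.9%, against 17%) were higher and 7 (15.2%, against 12.1%) lower with the control shRNA. With the KBTBD8 shRNA against the control in pluripotent cells 6 of the 46 (13%, against 5.58%) fell, led by PCLAF at -0.84 ± 0.13, with GMNN at -0.48 and NASP, a histone chaperone, at -0.45, and 2 rose, ORC5 of the origin recognition complex (0.72) and ASF1A, another histone chaperone (0.37). In embryoid bodies limma called none of the 46 in that comparison, 1 in each direction having an unadjusted p under 0.05.

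Of 31 other nucleotide genes, most changes were falls with differentiation: 16 (51.6%) fell and 5 rose in untransduced cells, 21 (67.7%) and 4 with the control shRNA, and 11 (35.5%) and 2 with the KBTBD8 shRNA. The mitochondrial folate enzymes MTHFD2 (-1.71, -1.11 and -1.88) and SHMT2 (-1.22, -1.07 and -1.74) fell in each, as did cytosolic MTHFD1 (-1.40, -1.23 and -1.43). RRM2B, the reductase subunit that serves outside S phase, fell as well (-1.86, -1.18 and -1.52). These folate enzymes fell in each treatment, and TYMS rose in each. Any link between them was not tested. With the control shRNA in pluripotent cells 8 of the 31 (25.8%, against 17%) were higher and 2 lower, including the purine enzymes PFAS and GART (0.53 each) and CAD of pyrimidine synthesis (0.49). In embryoid bodies the control shRNA gave 10 of the 31 (32.3%, against 24.6%) higher and 5 (16.1%, against 20.2%) lower, unlike the other replication genes. With the KBTBD8 shRNA against the control in pluripotent cells 5 of the 31 (16.1%, against 8.43%) rose and 3 (9.7%, against 5.58%) fell. These were led by TK2, a mitochondrial kinase (0.68), MTHFD2 (0.61) and SHMT2 (0.54), with DCTPP1, a pyrophosphatase, at -0.45.

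Among 28 genes of S phase entry, differentiation raised 13 (46.4%) and lowered 3 (10.7%) in untransduced cells. Under the control shRNA 8 (28.6%) were higher and 11 (39.3%) lower. With the control shRNA the cell cycle inhibitor CDKN1A rose by 1.17, while E2F8 (-1.10), MYBL2 (-1.02) and CDC25A (-0.71) fell. In pluripotent cells the control shRNA was accompanied by lower CDKN1B (-0.63) and CDKN1A (-0.56) and higher MYBL2 (0.63), CCND1 (0.62) and CDC25A (0.57), in all 6 (21.4%, against 17%) higher and 3 (10.7%, against 12.1%) lower of 28. In embryoid bodies 15 of the 28 (53.6%, against 20.2%) were lower and 3 higher with the control shRNA, with E2F2 at -0.83, E2F3 at -0.81 and FBXO5 at -0.68 against CDK6 at 0.85. With the KBTBD8 shRNA against the control in pluripotent cells 3 of the 28 (10.7%, against 8.43%) rose, CDK6 (1.12), CDKN1B (0.65) and CCND2 (0.26). Only CDC25A (-0.43) fell, 1 of the 28 (3.6%, against 5.58%), so both shares are close to the background.

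Of 19 genes of the replication stress response, 3 (15.8%, against 8.43%) rose and 1 (5.3%, against 5.58%) fell with the KBTBD8 shRNA against the control in pluripotent cells, namely RAD17 (0.57), GADD45A (0.53) and BRCA1 (0.49), and HUS1 (-0.46). The largest change of this list with differentiation under the control shRNA was GADD45A, a stress-induced gene, at 1.72. Against untransduced embryoid bodies, those with the control shRNA had 5 of the 19 (26.3%, against 24.6%) higher and 1 (5.3%, against 20.2%) lower. Of 30 mitosis genes, 9 (30%, against 12.1%) fell and 1 rose with the control shRNA in pluripotent cells, where 19 of the replication genes rose, and CCNB2 (-0.53) and NDC80 (-0.49) fell most. In embryoid bodies 14 of the 30 (46.7%, against 20.2%) fell and 1 rose. With the KBTBD8 shRNA against the control in pluripotent cells 6 of the 30 (20%, against 8.43%) rose, including NDC80 (0.58), CENPE (0.57) and CCNB2 (0.51), and 2 fell.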

How the data were processed

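RNA of 18 samples was measured on Affymetrix Human Gene 1.0 ST arrays. The deposited table holds log2 intensities that the authors made with GCRMA, per the submitters' processing notes, with no version given and no statement of whether all arrays were normalized together; the log base was read from the values. Of 33297 probe sets, 19460 carry 1 symbol in the platform annotation, 1754 several and 12083 none. Of the first kind, 31 carry a symbol not found in RefSeq and kept it. A gene was tested if 3 or more arrays read it above their own 40th percentile, which left 14209 of 18417.

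All members and lists were chosen with earlier results of these data known. limma 3.58.1 in R 4.3.3 was fitted with 1 mean per group on 16 arrays, without the KBTBD8 shRNA arrays numbered 2, leaving 10 residual degrees of freedom. A call means a Benjamini-Hochberg adjusted p under 0.05 over all genes tested, and differences are given with their standard errors. In each comparison the called genes whose groups do not overlap were ranked by size, and up to 6 in each direction are given by array. The separation of groups in those genes follows from that choice. From each list of further genes up to 4 called genes are named. Alternatives were all 18 arrays as labelled, a replicate block, only the groups compared, no filter, quantile normalization, arrays centred on their median, the mean of probe sets, an intensity trend, and leaving out each array. Promoter windows came from RefSeq (GRCh38.p14). Protein sequences were not used here.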

Additional observations from a re-analysis of the deposited data

Results flagged for a closer look

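The change with differentiation differed between the control shRNA and untransduced cells for 22 members by limma's test of the difference itself. On the log2 scale the differences, control shRNA minus untransduced, were -1.63 for FAM111B and -0.57 for FAM111A. They were -0.91 for MCM7, -0.83 for MCM2 and for MCM6, -0.78 for MCM5, -0.52 for MCM3, -0.50 for MCM10 and -0.49 for ORC1. Cyclins E1 and E2 (CCNE1 and CCNE2) differed by -0.77 and -0.59. The clamp and its loader gave -0.65 for PCNA, -0.52 for RFC1 and -0.34 for RFC2. RRM2 differed by -0.59, CHAF1A by -0.63, CHAF1B by -0.54 and TIPIN by -0.43. POLD1 differed by -0.64, and GINS2, FEN1 and LIG1 by -0.41 each.

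Between the KBTBD8 shRNA and the control shRNA the change with differentiation differed for 7 members by the same test, all in the higher direction. The differences were 0.88 for RRM2, 0.73 for PCNA, 0.54 for FAM111A, 0.51 for GINS1, 0.48 for MCM3 and for UNG, and 0.42 for FEN1. In embryoid bodies alone, PCNA, GINS1, FEN1 and UNG were not called between the KBTBD8 and the control shRNA, and in pluripotent cells alone MCM3 and FAM111A were not. The control shRNA arrays enter both sets of differences. What lies behind the differences was not tested.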

How the results depend on the processing

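Over the 11 comparisons, the count of members called moved by more than 1.5 times under the following settings, and otherwise stayed within it. On all 18 arrays as labelled, which adds the KBTBD8 shRNA arrays read apart, 10 members were called for differentiation in untransduced cells (18 on 16 arrays) and 0 with the KBTBD8 shRNA (20). They were 9 for the control shRNA against untransduced in pluripotent cells (21) and 9 in embryoid bodies (16), 6 and 7 for the KBTBD8 shRNA against untransduced (20 and 13), and 5 for the difference between control shRNA and untransduced (22). Calls over all genes tested fell on 18 arrays as well. In the order given they were 5491 (7411 on 16 arrays), 0 (5465), 1713 (4132), 3850 (6370), 2009 (4024), 4509 (5842) and 744 (2398). MCM3, RFC2 and RFC3 there read 0.03, 0.07 and 0.03 for differentiation with the KBTBD8 shRNA, against -0.31, -0.38 and -0.34. Quantile normalization and centring each gave 14 for the KBTBD8 against the control shRNA in pluripotent cells (9) and 13 for the difference of differentiation between them (7), an intensity trend gave 12 for the latter, and using only the groups compared gave 9 for the KBTBD8 shRNA against untransduced pluripotent cells (20). The cause was not tested. Leaving out each array in turn gave these ranges of calls: for differentiation, 14 to 20 (untransduced), 27 to 31 (control shRNA) and 12 to 22 (KBTBD8 shRNA). For the control shRNA against untransduced it gave 16 to 23 in pluripotent cells and 8 to 18 in embryoid bodies, for the KBTBD8 against the control shRNA 4 to 10 and 1 to 4, for the KBTBD8 shRNA against untransduced 9 to 21 and 9 to 14, and for the 2 differences of differentiation 15 to 23 and 2 to 9. Calls over all genes tested moved in these fits too. For the KBTBD8 against the control shRNA in pluripotent cells they ran from 724 to 2290. FAM111B, uncalled at -0.01 for differentiation in untransduced cells, read -0.21 to 0.38, the latter without pluripotent array 1.

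No label says that the replicate numbers pair the arrays, and over all groups they did not: deviations of same-numbered arrays correlated at -0.38 to 0.43 (median 0.03), and those of others at -0.43 to 0.33 (median -0.02). Among the pluripotent control shRNA group and both KBTBD8 shRNA groups the same-numbered pairs stood at 0.32 to 0.43, but with 2 arrays in a KBTBD8 shRNA group the deviations of 1 and 3 mirror each other, so that no comparison there has 3 pairs. With the replicate number as a block the counts were 18, 30 and 20 for differentiation, 21 and 17 for the control shRNA against untransduced, 9 and 3 for the KBTBD8 against the control shRNA, 19 and 15 for the KBTBD8 shRNA against untransduced, and 21 and 6 for the differences of differentiation. The signal of all 43 members passed the filter on low intensity, and each KBTBD8 shRNA group rests on 2 arrays.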

Other observations

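The arrays read apart belong to no group mean above. The array labelled pluripotent with the KBTBD8 shRNA, numbered 2, read 8.64 for TIPIN, 8.85 for MCM5, 7.54 for CCNE1, 9.24 for RRM1 and 8.73 for CHAF1A. The array labelled embryoid body with the KBTBD8 shRNA, numbered 2, read 9.86 for TIPIN, 9.74 for MCM5, 8.38 for CCNE1, 9.0 for RRM1 and 9.73 for CHAF1A. RRM2, PCNA and TYMS read 7.60, 8.80 and 9.87 on the former and 7.43, 8.97 and 10.02 on the latter, so that for these 3 genes the arrays lay closer together than for TIPIN or MCM5.

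Single arrays also stood off within a group. FAM111B read 8.46 on untransduced pluripotent array 1 and 7.26 and 7.29 on the others, and GINS4 read 8.38 on untransduced pluripotent array 2 and 7.73 and 7.75 on the others.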
